A study of Mus musculus with 6 samples.

Results

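Fibroblast growth factor (FGF) signalling was examined through 10 genes, 3 ligands (Fgf7, Fgf9, Fgf10), 3 receptors (Fgfr1, Fgfr2, Fgfr3) and 4 feedback inhibitors of the Ras and Erk cascade (Spry2, Spry4, Dusp6, Spred1). They were chosen by gene symbol, and all 10 were found among the 20033 genes of the deposited table. The libraries come from male mouse mesonephroi at stage E12.5 of gestation, 3 from embryos called Wnt9b control and 3 from embryos called Wnt9b knockout, a global loss of this secreted Wnt ligand of the duct epithelium. For the controls the genotype field says heterozygous whereas the series text gives Wnt9b+/+, so the word control is used here. Each library came from its own mouse per the titles, and litter and batch are not given. The mesonephros is the transient embryonic kidney and holds the Wolffian duct, the androgen-dependent precursor of the epididymis and vas deferens.

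FGF ligands bind receptor tyrosine kinases with heparan sulfate as a cofactor, and the receptor signals through the adaptor Frs2 to Ras, Raf, Mek and Erk. Erk then raises the transcription of its own inhibitors, the Sprouty, Spred and dual-specificity phosphatase genes, and of ETS factor genes such as Etv4 and Etv5, whose mRNA is widely used as a readout of the pathway. In the urogenital ridge, Fgf7 and Fgf10 are ligands made by mesenchyme for epithelium, Fgf9 acts in the early testis and on nephron progenitors, and Fgfr2 is needed in the nephric duct and its outgrowth. Gene-level values do not separate the b and c splice forms of the receptors, which set ligand preference, and mRNA does not show phosphorylated Erk.

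None of the 10 genes passed the test between knockout and control mesonephroi (limma adjusted p under 0.05), where 0.444% of all 17577 tested genes did. The 2 groups overlapped for all 3 ligands and for the receptors Fgfr1 and Fgfr3, and Fgfr2 was 14.3% higher in the knockouts by group means. Dusp6 and Spry4 were lower in every knockout library than in every control, by 16.7% and 24.1%, while Spry2 and Spred1 overlapped. Groups that did not overlap were found for 3 of the 10 genes and for 16.6% of all genes tested. The same 3 genes had an unadjusted p under 0.05, against 11.3% of all genes. Also 0 of the 10 passed in the authors' deposited table and by limma-voom, which models the mean-variance relation on reads. All 10 genes passed the filter on low values, at least 1 TPM in 3 libraries, although Fgf7 did so narrowly. TPM is a transcript abundance corrected for gene length and library size, so levels can be compared between genes.

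In controls the members spanned a wide range of levels. By mean control TPM the order was Dusp6, Spred1, Fgfr1, Spry2, Fgfr2, Fgf9, Spry4, Fgfr3, Fgf10 and Fgf7. The most abundant, Dusp6, stood at percentile 93.7 of tested genes and Fgf7 at percentile 3.72. The control ranges of Fgf9 and Spry4 overlapped, as those of no other neighbours in this order did. In the knockouts the ranges of Dusp6 and Spred1, of Spred1 and Fgfr1, and of Fgfr3 and Fgf10 overlapped. The coefficient of variation between control embryos ran from 2.19% for Fgfr2 to 56.5% for Fgf7, where the median over all tested genes was 9.64%. In knockouts it ran from 1.25% for Dusp6 to 28.0% for Fgf10, with a median of 11.9% over all tested genes.

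**Figure D1:**
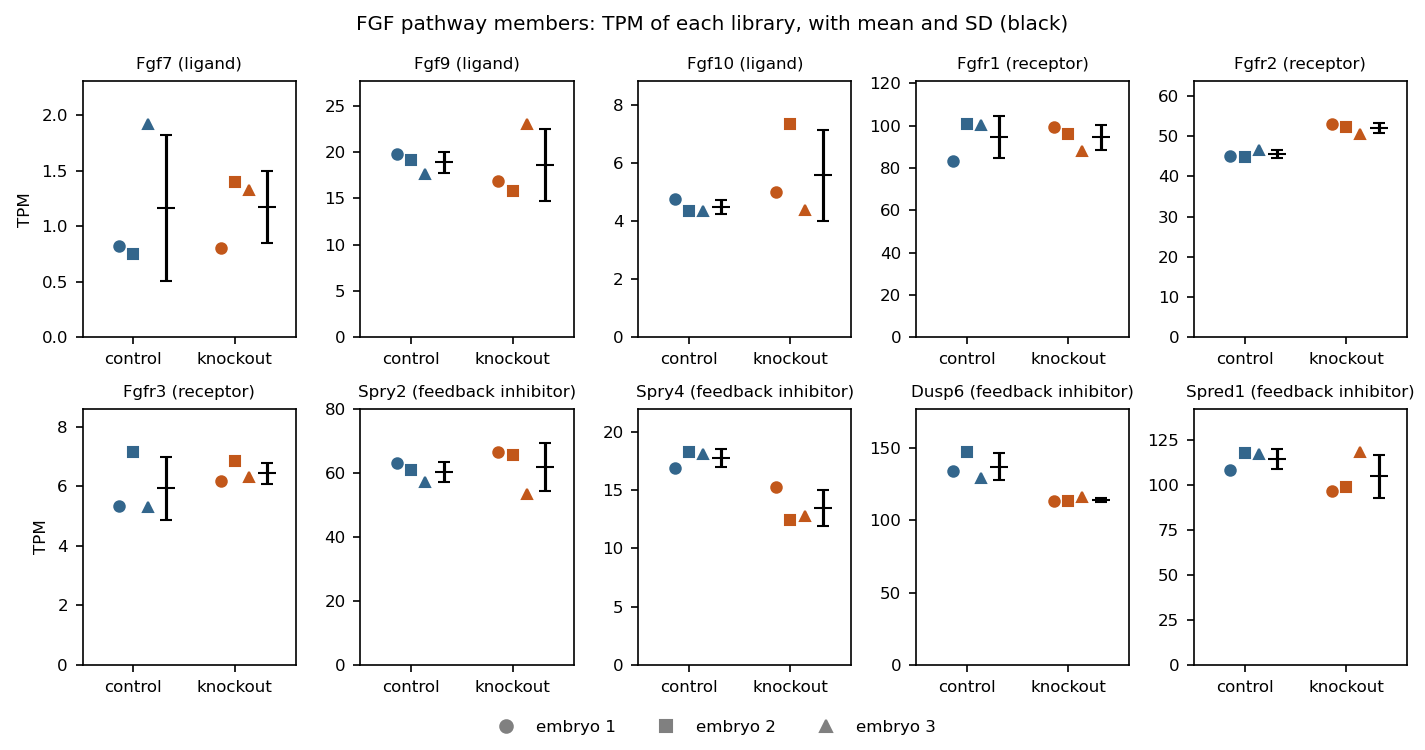
TPM of the 10 genes in each library (points, 3 controls in blue and 3 knockouts in orange, embryo number by shape) with the mean and SD of each group in black; embryo numbers do not pair the groups. Fgfr2 is above all controls in all knockouts, Dusp6 and Spry4 are below all controls in all knockouts, and the other 7 genes overlap.

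Whole read numbers recovered from the TPM ratios show how well each gene was sampled. Fgf7 had between 10 and 25 reads per library, Fgf10 between 161 and 284, Fgfr3 between 304 and 423, and Spry4 between 495 and 780. The other members had at least 618 reads in every library, the low value of Fgf9, and up to 8992, the high value of Fgfr1. The values of Fgf7 therefore carry far more counting error than those of the other members.

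Among the 3 member ligands, Fgf9 (ENSMUSG00000021974) made up most of the measured transcript. Outside the members, the ligand genes Fgf18 and Fgf2, named here after looking at their values, had control means of 23.3 and 9.57 TPM. Fgf9 was at 19.8, 19.2 and 17.6 TPM in the controls versus 16.8, 15.8 and 23.0 TPM in the knockouts. Knockout 3 was above and knockouts 1 and 2 were below every control. The log2 difference of -0.04 (SE 0.15; 95% interval -0.37 to 0.29) did not pass the test (limma adjusted p = 0.947). It was -0.20 without knockout 3 and 0.06 without knockout 2. Fgf9 took 76.9% ± 2.80 (SD, n = 3) of the summed TPM of the 3 ligands in controls and 73.0% ± 7.95 in knockouts.

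The mesonephros lies against the gonad, where Fgf9 is also made, so the gonadal markers are given here. All 10 listed genes of supporting and other gonadal somatic cells were in the table, and none was at 0 in any library. Their summed level ran from 333 to 337 TPM in controls and from 389 to 492 TPM in knockouts, with the highest sum in knockout 1 and the lowest of the knockouts in knockout 3. Of these 10, Nr5a1, Gata4 and Lhx9 rose and none fell (limma adjusted p = 0.0281, 0.0354 and 0.0463). Over all 17577 tested genes, 23 rose by that test. Amh had means of 6.89 TPM in controls and 40.7 TPM in knockouts, with overlap between the groups. Wt1, which is also a mesenchymal and nephron gene and the most abundant of the list, had a log2 difference of 0.05. Of 5 listed steroidogenic genes 4 were in the table and 2 of these were at 0 in a library. Their sum ran from 6.54 to 8.65 TPM in controls and from 11.0 to 18.8 TPM in knockouts, and 0 of 2 tested genes passed limma. Fgf9 was highest in the knockout with the smallest gonadal sum, and the part of gonadal tissue in the Fgf9 values was not tested. In such bulk libraries fewer cells of a type and less RNA per cell cannot be told apart.

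Fgf10 (ENSMUSG00000021732), the mesenchymal ligand of branching epithelia, was at 4.78, 4.34 and 4.36 TPM in the controls versus 5.01, 7.35 and 4.39 TPM in the knockouts. Knockout 2 alone stood well above the controls and knockout 3 lay within their range. Its difference on the log2 scale was 0.24 (SE 0.19; 95% interval -0.21 to 0.68; limma adjusted p = 0.715) and 0.05 without knockout 2. Fgf7 (ENSMUSG00000027208), a ligand of the same subfamily, was near the limit of what was tested, at 0.823, 0.745 and 1.92 TPM in the controls versus 0.803, 1.39 and 1.32 TPM in the knockouts. Its groups overlapped, and its interval of -0.58 to 0.66 on the log2 scale was the widest among the members. The 8 genes of the mesonephric mesenchyme list, all in the table, summed to between 3044 and 3414 TPM in controls and between 2856 and 3086 TPM in knockouts, with overlap between the groups. Collagen genes made up most of this sum, Col3a1 alone at a mean of 1074 TPM in controls. Within the list, Tcf21, a transcription factor gene of mesenchyme, rose by 54.6% (limma adjusted p = 0.0197), and Pdgfrb, a receptor gene of mesenchyme and mural cells, was 0.659 times the control mean (limma adjusted p = 0.0137). Their part in the Fgf10 and Fgf7 values was not tested.

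Fgfr1 (ENSMUSG00000031565), the receptor of mesenchyme and much of the epithelium, was the most abundant of the 3 receptors. Its values were 83.1, 100.7 and 100.3 TPM in the controls versus 99.4, 96.0 and 87.8 TPM in the knockouts. Control 1 was the lowest of all 6 libraries, and the groups overlapped. The log2 difference was -0.00077 with an interval of -0.21 to 0.21 (limma adjusted p = 0.998), and its sign changed with the library left out, from -0.09 without control 1 to 0.05 without knockout 3.

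Fgfr2 (ENSMUSG00000030849), the main receptor of duct epithelium for Fgf7 and Fgf10 in its b form, was at 45.1, 44.8 and 46.7 TPM in the controls versus 53.0, 52.4 and 50.7 TPM in the knockouts. All 3 knockouts were above all controls, as in 8.14% of all genes tested. The log2 difference of 0.19 (SE 0.066; 95% interval 0.04 to 0.34) did not pass over all genes (limma adjusted p = 0.323). It stayed between 0.175 and 0.207 over all 15 alternatives, with adjusted p from 0.182 to 0.708. For Fgfr2 the log2 fold change in the authors' deposited table is 0.20 (adjusted p 0.129). Beside it, the 8 genes of the duct epithelium list, where Fgfr2 acts, summed to between 814 and 855 TPM in controls and to between 698 and 770 TPM in knockouts, lower in every knockout. Of these 8, 0 passed limma, and 2 (25%) were lower at an unadjusted p under 0.05, against 5.92% of all genes tested. The keratin genes Krt18 and Krt8 and the adhesion gene Epcam made up most of the sum, at means of 296, 179 and 143 TPM in controls versus 243, 151 and 127 TPM in knockouts. The duct genes Cdh1, Gata3 and Ret had higher means in the knockouts, at 1.13, 1.06 and 1.13 times the control mean. The part of duct RNA in the Fgfr2 values was not tested.

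Fgfr3 (ENSMUSG00000054252), a receptor of lower level here, was at 5.33, 7.15 and 5.29 TPM in the controls versus 6.17, 6.84 and 6.32 TPM in the knockouts, and the groups overlapped. Its log2 difference was 0.11 with an interval of -0.25 to 0.48. Summed over the 3 receptors, the level was 146 ± 10.9 TPM (SD, n = 3) in the controls versus 153 ± 7.18 TPM in the knockouts. Within that sum, Fgfr1 took 62.3%, 66.0% and 65.9% in the controls and 62.7%, 61.9% and 60.6% in the knockouts. The share of Fgfr2 was 33.8%, 29.4% and 30.7% in the controls and 33.4%, 33.74% and 34.99% in the knockouts. The shares overlapped through control 1, in which Fgfr1 was low.

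**Figure D2:**
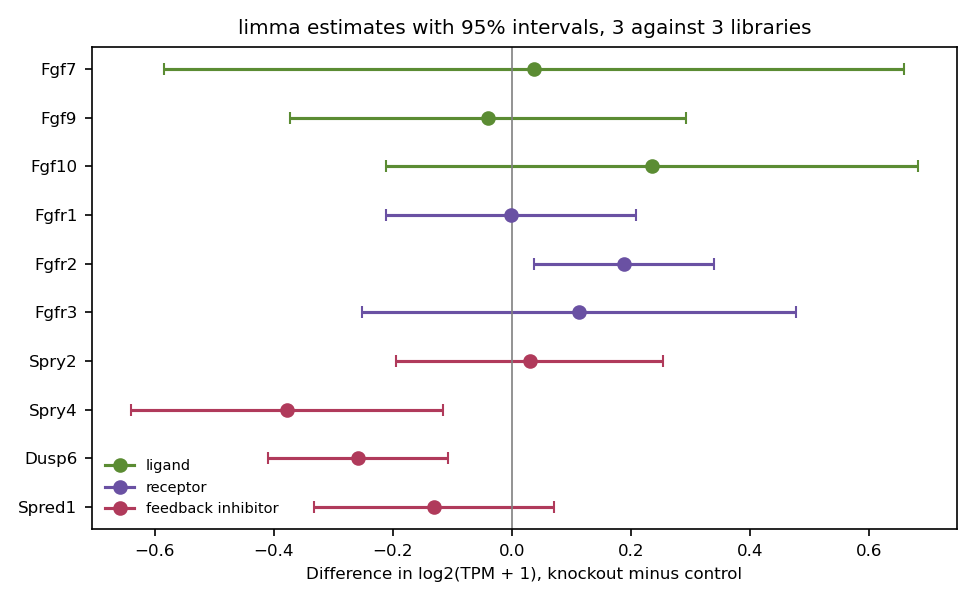
Difference in log2(TPM + 1) of knockout minus control for the 10 genes, with limma's 95% intervals before adjustment over all genes, coloured by role. The intervals of Fgfr2, Spry4 and Dusp6 do not cover 0, and none of the 10 passed the adjusted test.

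Among the feedback inhibitors, Dusp6 and Spry4 were lower in every knockout, whereas the groups overlapped for Spry2 and Spred1. Whether these genes differed from each other in their response was not tested. Dusp6 (ENSMUSG00000019960), a cytoplasmic phosphatase that removes the activating phosphates of Erk, was at 134, 147 and 129.6 TPM in controls. It was at 113, 113 and 116 TPM in knockouts, all below the lowest control. Knockouts below all controls were found in 8.49% of all genes tested. The log2 difference was -0.26 (SE 0.066; 95% interval -0.41 to -0.11; limma adjusted p = 0.178). It ran from -0.30 to -0.21 over 15 alternatives, with adjusted p from 0.124 to 0.559. For Dusp6 the authors' deposited table holds a log2 fold change of -0.25 (adjusted p 0.0530), just above the threshold that 3.55% of genes there pass.

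Spry4 (ENSMUSG00000024427), a Sprouty protein that blocks receptor signalling to Ras and Erk, was at 16.9, 18.3 and 18.1 TPM in the controls versus 15.2, 12.4 and 12.8 TPM in the knockouts. The gap between the groups was narrow, since knockout 1 lay close under control 1. On the log2 scale Spry4 differed by -0.38 (SE 0.11; 95% interval -0.64 to -0.12; limma adjusted p = 0.251), and it ran from -0.46 to -0.33 over 15 alternatives. Its entry in the authors' deposited table is -0.39 (adjusted p 0.0687).

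Spry2 (ENSMUSG00000022114), the more abundant Sprouty gene of this pair, was at 63.3, 60.9 and 57.2 TPM in the controls versus 66.7, 65.8 and 53.5 TPM in the knockouts. Knockouts 1 and 2 were above and knockout 3 below all controls. The log2 difference was 0.03 (SE 0.098; 95% interval -0.19 to 0.25; limma adjusted p = 0.940). The ratio of Spry4 to Spry2 in TPM was 0.266, 0.300 and 0.317 in controls and 0.228, 0.188 and 0.239 in knockouts, with no overlap. This ratio shares the Spry4 values, whose groups did not overlap either, and no share over other gene pairs was computed.

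Spred1 (ENSMUSG00000027351), which brings neurofibromin to the membrane to switch off Ras, was at 108, 118 and 117 TPM in the controls versus 97.0, 99.1 and 118.5 TPM in the knockouts. Knockout 3 was the highest of all 6 libraries and the other 2 knockouts were below every control. Spred1 differed by -0.13 on the log2 scale (SE 0.088; 95% interval -0.33 to 0.07; limma adjusted p = 0.646) and -0.22 without knockout 3. In that library Fgf9 was also the highest and Spry2 the lowest of the 6.

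The promoter regions of Dusp6, whose knockouts were all below the controls, and Spry2, whose groups overlapped, are shown for contrast as the 250 bases before the gene start (RefSeq, GRCm38.p6, which is not the build of the deposited data). Capitals mark GGAA, the core letters bound by ETS factors, on either strand, so TTCC marks the opposite strand. Dusp6 lies on the plus strand at chr10:99262981-99263230 and Spry2 on the minus strand at chr14:105896820-105897069.
Dusp6: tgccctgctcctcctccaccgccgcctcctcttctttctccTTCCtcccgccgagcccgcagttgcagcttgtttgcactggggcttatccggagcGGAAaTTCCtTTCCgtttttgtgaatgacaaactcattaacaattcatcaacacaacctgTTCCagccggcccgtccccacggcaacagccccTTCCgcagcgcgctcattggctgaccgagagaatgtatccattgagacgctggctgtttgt
Spry2: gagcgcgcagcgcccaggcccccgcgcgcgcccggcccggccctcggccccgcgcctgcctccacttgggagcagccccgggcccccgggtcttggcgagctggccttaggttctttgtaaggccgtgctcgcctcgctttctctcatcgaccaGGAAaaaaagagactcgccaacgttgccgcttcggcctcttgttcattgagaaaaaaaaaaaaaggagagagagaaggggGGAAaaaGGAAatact
The Dusp6 window held 6 GGAA matches, 5 of them on the opposite strand, and the Spry2 window held 3, all on the gene's own strand. The letters GGAA on either strand were found in 93.4% of 32851 promoter windows of this length, with a median of 3 matches. Neither window held CCGGAA, a longer ETS motif that overlaps GGAA and was found in 12.0% of windows. Neither held CTTTGA, a form of the letters bound by the TCF and LEF factors of Wnt signalling, found in 13.8%. Other forms of those letters were not searched, and the printed Spry2 window holds CTTTGT. Entries for 8 of the 10 members were matched, and none of those windows held either longer motif. Fgfr1 and Spry4 had no entry, so Spry4, the other member lower in every knockout, has no window. Of GGAA matches, Spred1 and Fgf7 held 4 each, Fgfr3 1 and 5 in separate windows, and Fgf9, Fgf10 and Fgfr2 2 each. Among other pathway genes lower in every knockout that were looked up, Spry1 held 1, Flrt3 and Elk3 2 each, and Etv1 2 and 1 in separate windows. No entry was matched for Etv4, Gpc6 and Sdc2, which were also looked up. The Dusp6 window held the most GGAA matches of all these windows. A relation between these counts and the differences was not tested. A match is a run of letters and not a measured binding site.

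The other genes of the pathway were taken as a list of 94 by role, of which 84 were in the table and 80 were tested. By limma, 0 of the 80 passed the adjusted threshold. With an unadjusted p under 0.05, 14 were lower and 0 were higher, where 5.92% of all tested genes were lower and 5.35% higher at that level. By the adjusted p of the authors' deposited table, 8 of the 80 were lower and 0 higher, where 2.17% of all genes with such a p were lower. A limma-voom fit of the recovered reads called 5, each lower (Spry1, Etv4, Gpc6, Sdc2 and Flrt3), and 1.69% of all genes in either direction. The knockouts were all below the controls in 17 of the 80 genes, 21.2%, and all above in 0, where all tested genes gave 8.49% and 8.14%. These counts include Fgf3, which passed the filter through the controls alone. Without it 13 of 79 genes were lower at an unadjusted p under 0.05, 16 had all knockouts below all controls, and 7 were lower in the authors' deposited table. The median log2 difference was -0.11 for the 80 genes, 0.015 for the 10 members and -0.0075 for all genes tested.

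**Figure D3:**
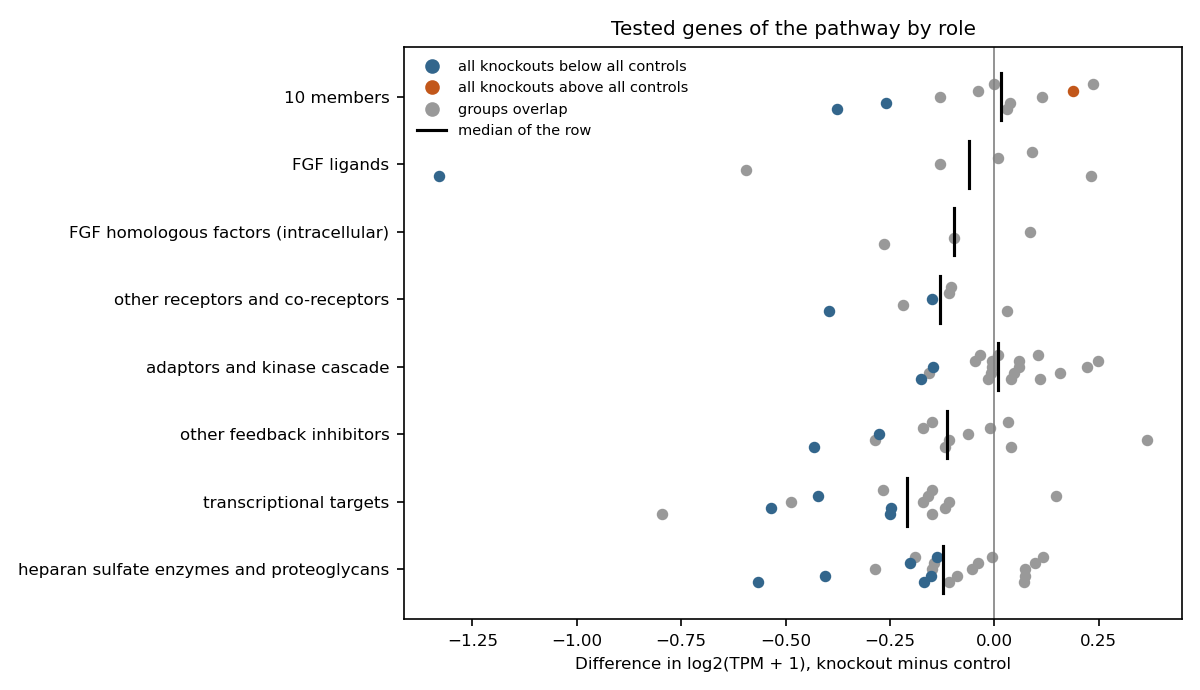
Difference in log2(TPM + 1) of knockout minus control for the 10 members and for the 80 other tested genes of the pathway by role, 1 point per gene, with the median of each row as a black line and colours for groups that do not overlap. The medians of the transcriptional targets (-0.21) and of the other feedback inhibitors (-0.11) lie below 0. So do those of the other receptors (-0.13), heparan sulfate genes (-0.12), homologous factors (-0.096) and other ligands (-0.061). The median of the other ligands includes Fgf3, which passed the low-value filter through the controls alone. Without Fgf3 the middle value of that row is 0.0088 (Fgf5), not below 0. Those of the adaptors and kinases (0.0092) and of the members (0.015) are close to 0.

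Of 12 other feedback inhibitors tested, 0 passed limma in either direction. At an unadjusted p under 0.05, 2 of them (16.7%) were lower (Spry1 and Nf1), against 5.92% of all genes tested. Spry1, the Sprouty gene that limits Ret and FGF signalling in the duct, was at 104, 116 and 117 TPM in the controls versus 83.9, 86.2 and 78.8 TPM in the knockouts. No knockout value reached the control range, and the log2 difference of -0.43 (SE 0.073) narrowly missed the threshold (limma adjusted p = 0.0569). For Spry1 the authors' deposited table holds 0.000122 as adjusted p. Nf1, which encodes the neurofibromin recruited by Spred1, had means of 27.7 ± 1.53 TPM (SD, n = 3) in the controls versus 22.6 ± 1.08 TPM in the knockouts (log2 difference -0.28; limma adjusted p = 0.273). For Nf1 the authors' deposited table holds 0.0121.

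Of 14 transcriptional targets tested, 0 passed limma in either direction, 4 had an unadjusted p under 0.05, 13 had a negative difference, and in 4 the groups did not overlap (Etv4, Etv1, Elk3 and Ets1, each lower). Over all genes tested, 5.92% were lower at that unadjusted p, 51.8% had a negative difference, and 8.49% had all knockouts below all controls. Etv4, an ETS factor gene induced by Erk, was at 41.2, 38.6 and 39.3 TPM in the controls versus 30.7, 23.8 and 27.2 TPM in the knockouts. Its log2 difference was -0.53 (SE 0.10; limma adjusted p = 0.0879). For Etv4 the authors' deposited table holds an adjusted p of 0.000898. Elk3, an ETS factor of the ternary complex class, had a log2 difference of -0.25 (limma adjusted p = 0.169). Etv5, the close relative of Etv4, had means of 51.3 ± 2.06 TPM in the controls versus 47.3 ± 4.17 TPM in the knockouts (SD, n = 3), with a log2 difference of -0.12 (95% interval -0.31 to 0.074).

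Fos and Egr1, immediate early genes that Erk induces quickly, varied widely between embryos of a genotype. Fos was at 56.7, 9.83 and 20.03 TPM in the controls versus 2.77, 67.7 and 17.4 TPM in the knockouts. Egr1 was at 45.7, 25.5 and 28.2 TPM in the controls versus 8.20, 40.4 and 17.1 TPM in the knockouts. Both were highest in control 1 among the controls and in knockout 2 among the knockouts, and lowest of all in knockout 1. Etv1, Etv5, Ets1, Fos and Egr1 were named outside the rule, after looking at their values.

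Among 6 other ligands tested, Fgf3, a ligand best known from the inner ear and tail bud, was at 3.09, 1.77 and 2.25 TPM in the controls versus 0.748, 0.205 and 0.103 TPM in the knockouts. It passed the low-value filter through the controls alone and rested on 73 reads in the controls together and 11 in the knockouts. Fgf17, another secreted ligand, had means of 4.52 ± 1.16 TPM (SD, n = 3) in the controls versus 2.69 ± 1.05 TPM in the knockouts (log2 difference -0.60; limma adjusted p = 0.430). Of 3 tested homologous factors, which act inside the cell and not on the receptors, Fgf11 and Fgf12 had log2 differences of -0.27 and -0.096.

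Among 6 other receptors and co-receptors tested, Flrt3, a membrane protein that binds FGF receptors, was at 45.7, 53.5 and 54.5 TPM in the controls versus 39.6, 34.7 and 41.7 TPM in the knockouts. Its log2 difference was -0.40 (limma adjusted p = 0.178). Its adjusted p was 0.00328 per the authors' deposited table. Fgfbp3, a secreted carrier of FGFs, had a log2 difference of -0.15. Of the 19 adaptors and kinases between receptor and Erk, 10 had positive and 9 had negative differences. In 2 of them, 10.5%, all knockouts were below all controls, against 8.49% of all genes tested. Those of smallest p, the guanine nucleotide exchange factor gene Sos2 and the docking protein gene Gab1, differed by -0.18 and -0.16 on the log2 scale (adjusted p = 0.571 and 0.572 by limma).

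Heparan sulfate carries FGFs to their receptors. Of 20 tested genes for its synthesis, its editing and its core proteins, 0 passed limma. At an unadjusted p under 0.05, 5 of them (25%) were lower, against 5.92% of all genes tested. In 6 (30%) all knockouts were below all controls, against 8.49% of all genes tested. Gpc6, a glypican core protein gene, had means of 36.5 ± 5.15 TPM (SD, n = 3) in the controls versus 24.4 ± 4.02 TPM in the knockouts (log2 difference -0.57; limma adjusted p = 0.171). Sdc2, a syndecan of mesenchyme, was at 180, 163 and 179 TPM in the controls versus 120, 124 and 151 TPM in the knockouts (log2 difference -0.41; limma adjusted p = 0.144). It passed without knockout 3 (log2 difference -0.51; limma adjusted p = 0.0225). Their adjusted p were 0.000229 and 0.00172 per the authors' deposited table.

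Other marker lists are given here because their RNA is part of the same libraries. The 7 genes of the tubule epithelium list, all present, summed to between 233 and 250 TPM in controls and to between 175 and 197 TPM in knockouts, and Lhx1 and Jag1 fell (limma adjusted p = 0.0123 and 0.0325). Irx1 of that list passed the low-value filter through the controls alone, at 3.22, 2.50 and 3.14 TPM in the controls versus 0.415, 0.364 and 0.820 TPM in the knockouts. The 5 endothelial genes summed to between 306 and 326 TPM in controls and to between 248 and 291 TPM in knockouts. Of these 5, 0 passed limma, and 2 (40%) were lower at an unadjusted p under 0.05, against 5.92% of all genes tested. Nerve and glial markers ran from 14.4 to 17.2 TPM in controls and reached 60.6 TPM in knockout 1 and 30.2 TPM in knockout 2. Knockout 3 had 15.2 TPM for that list, within the control range. Germ cell markers were highest in library 1 of each genotype, at 53.8 and 71.4 TPM. The nerve and germ cell sums overlapped between the groups, and 0 of 5 tested genes of either list passed limma. Th of the nerve list was higher in every knockout than in every control, and passed the low-value filter through the knockouts alone. By the authors' deposited table, 2 tested genes of the nerve list were higher and 0 lower (Th and Sox10, adjusted p 0.00097 and 0.0496). The part of tubule, endothelial, duct or nerve RNA in the lower values of Dusp6, Spry4, Spry1 and Etv4 was not tested.

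**Figure D4:**
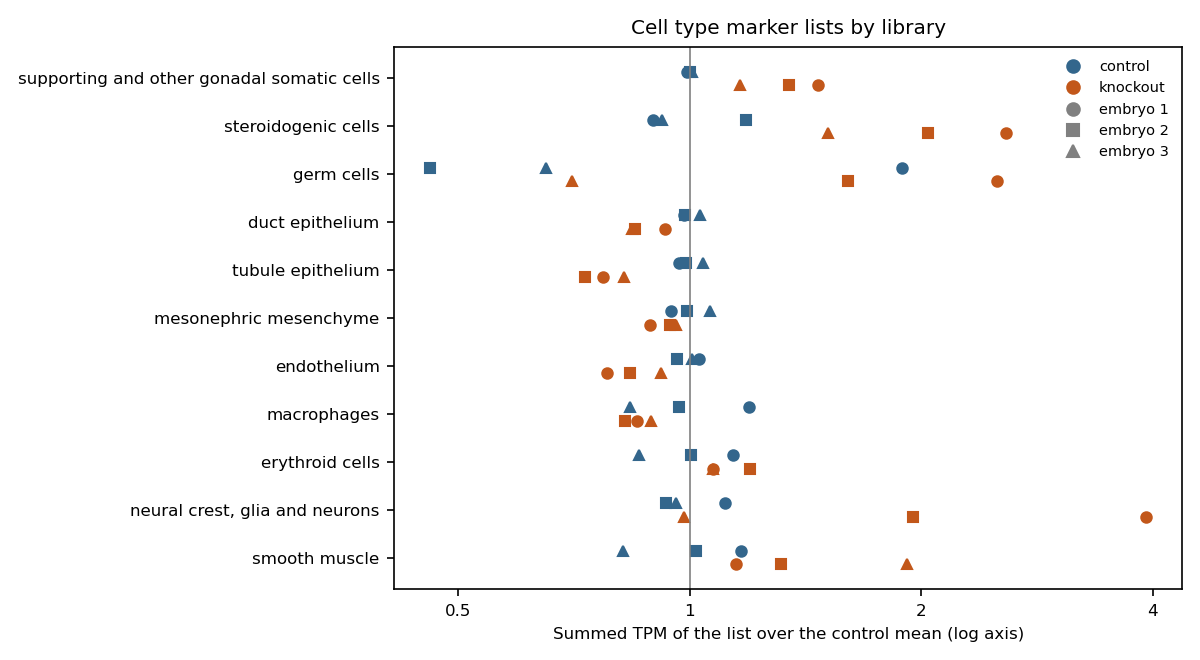
Summed TPM of each marker list in each library, divided by the mean of the controls, on a log axis (controls blue, knockouts orange, embryo number by shape). Gonadal somatic and steroidogenic sums are higher and tubule, duct and endothelial sums are lower in all 3 knockouts than in all 3 controls, while nerve and germ cell sums vary most between embryos.

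Wnt9b itself was at 24.9, 26.4 and 34.0 TPM in the controls versus 23.4, 19.2 and 19.0 TPM in the knockouts, all knockouts below all controls, with a log2 difference of -0.44 (limma adjusted p = 0.266). For Wnt9b the log2 fold change in the authors' deposited table is -0.45 (adjusted p 0.0263). Reads from any part of the locus enter this value, so it checks the genotype labels only weakly. The lower bounds on reads assigned to genes ran from 28687415 to 33574278 per library.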

How the data were processed

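Poly(A) RNA of 6 male mesonephroi was sequenced in paired-end mode (150 bases), per the labels' protocols. The build GRCm39 and DESeq2 are named in the submitters' processing notes, and aligner, counter, strandedness and annotation were not given in the sources used here. Per the file headers, the authors deposited 1 TPM column per library, with their own log2 fold change, p-value and adjusted p-value, which are quoted only where named as the authors' deposited table.

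Genes reaching 1 TPM in 3 or more libraries were fitted on the log2(TPM + 1) scale by limma 3.58.1 (R 4.3.3), trended, with genotype alone in the model. P-values were adjusted by Benjamini and Hochberg over all 17577 genes (threshold 0.05). A difference on this scale understates the change of low genes. TPM keeps no depth, but ratios of the 6 values gave whole reads within 0.02 reads for 20033 genes. A divisor shared by all 6 values of a gene is lost, so totals are lower bounds. Same-numbered embryos did not deviate together (Pearson r of deviations -0.064, 0.050 and -0.051), so the numbers were not taken as pairs. The fit was tested on simulated data.

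The members and lists were chosen with earlier results of these data known. Named were Wnt9b, the 10 members, any list gene past the test, the 2 of smallest p per role and, for a marker list set beside a member, up to 3 markers of highest level. That last part was followed only in part, and the other markers named were chosen after their values were seen. Replicates are separate mice per the titles. Alternatives were other scalings, filters, pseudocounts, no trend, removal of erythroid genes, a replicate block, omission of each library and, chosen after seeing the data, limma-voom on recovered reads.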

Additional observations from a re-analysis of the deposited data

How the results depend on the processing

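No member passed the test under any of the alternatives run, by limma on TPM or by limma-voom (adjusted p at least 0.124 in all of them). Fgfr2, Fgfr3, Fgf10, Spry4, Dusp6 and Spred1 kept their sign throughout. Signs of members with differences near 0 did not hold. For Fgfr1 the difference was 0.00807 with median-ratio scaling, 0.00177 without erythroid genes and 0.00928 by limma-voom. With 1 library left out it ran from -0.0909 to 0.0499 for Fgfr1, from -0.0971 to 0.166 for Fgf7, from -0.197 to 0.0596 for Fgf9, and from -0.0257 to 0.131 for Spry2. Of the other pathway genes, Fgf12 ran from -0.204 to 0.00174. Fgf7 fell under the filter in the other 3 omissions (control 3, knockout 2 and knockout 3). In the other genes of the pathway, limma-voom called 5 genes, and leaving out 1 library gave 0 to 1, the 1 being Sdc2 without knockout 3; the cause was not tested. Over all genes the count of 78 became 28 without a mean-variance trend, 297 by limma-voom, and between 13 (without control 2) and 242 (without knockout 3) with 1 library left out. With the replicate block it was 17, and the block changed no call of a member or of the wider list. Every omission moved the count by over 1.5 times: 28 and 14 without control 1 and 3, 30 and 22 without knockout 1 and 2. No scaling moved the median of all genes by over 0.1 on the log2 scale. With 3 embryos a group, the intervals of Fgf7, Fgf10 and Fgfr3 are the widest of the members, and at 10 to 25 reads a library a change in Fgf7 was not detectable unless large.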
